A study of Mus musculus with 6 samples.

Results

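Caspases are proteases that are made as inactive precursors and cleave other proteins after aspartate when switched on, and the genes described here encode 5 of them together with the proteins that start or restrain the chain. The 8 genes were Casp1, Casp2, Casp6, Casp8, Casp9, Apaf1, Xiap and Diablo. Every probe set that the array's annotation pairs with 1 of these symbols alone was taken, which gave 19 of the 45037 probe sets tested, for 8 of 18193 genes. The rule uses names and no signals, but the list was drawn up with earlier results of these data known.

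RNA came from Ter119-positive cells of the liver of embryos at embryonic day 14.5, taken from 3 pools of STAT5 KO embryos and 3 pools of wild type embryos. Each pool joined cells of 3 to 5 embryos of the same genotype and was hybridised to its own array. Ter119 marks maturing red cell precursors, which the liver of the embryo makes in large numbers at this age. The labels name the genotype only as STAT5 KO, and the alleles, the strain and the extent of the deletion are not given in the sources used here. STAT5A and STAT5B are transcription factors that act below the erythropoietin receptor, a receptor that keeps erythroid precursors alive. The comparison therefore asks whether RNA levels of the death machinery itself differ between STAT5 KO and wild type pools.

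In the mitochondrial route to apoptosis, cytochrome c leaves the mitochondria and binds APAF1, which assembles into a wheel called the apoptosome and activates caspase-9. In the death receptor route, caspase-8 is activated at the receptor through the adaptor FADD. Both routes lead to executioner caspases, XIAP blocks caspase-9 and some of the executioners, and DIABLO (also called SMAC) leaves the mitochondria to displace XIAP. In human erythroblasts caspases are also active for a time during normal maturation without killing the cell, which makes their transcripts of interest in this lineage.

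Signals are the deposited linear intensities of each probe set, and differences are log2 signal in STAT5 knockout minus log2 signal in wild type pools, with the standard error (SE) and 95% interval of limma's fit and n = 3 per genotype. As a mark of low signal, called the control level, serves 162.5, the 95th percentile over 27 probe sets for bacterial transcripts. Median signals were 177 to 185 on knockout arrays and 175 to 216 on wild type arrays. All 4 Stat5a and Stat5b probe sets were lower on each knockout array than on each wild type array, by -3.77 to -1.29 on the log2 scale, although none passed the adjusted threshold. Of these, Stat5b 1422102_a_at still had a knockout mean above the control level, with signals of 205, 334 and 160. The 7 measured of 10 erythroid markers exceeded the control level in both genotypes, and so did all 10 macrophage markers and 8 measured hepatocyte markers, so the pools held RNA of other liver cells as well. Hepatocyte markers were lower in knockout pools for 8 of 8 genes, with summed signals of 122198 to 134107 in knockout and 141492 to 234422 in wild type pools, without a call for any 1 gene. Of 11 genes that respond to handling and stress, 10 were higher in knockout pools (median difference 0.92), with summed signals of 16022 to 28005 in knockout and 9972 to 15420.1 in wild type pools. The part of either list in the differences below was not tested. In RNA of pooled cells, fewer cells of a type and less RNA per cell cannot be told apart. The median difference over all probe sets was -0.07 on the deposited scale and 0.04 after median centring, and differences below are to be read against these.

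No difference between STAT5 knockout and wild type pools was called for any of the 8 genes. By limma with Benjamini-Hochberg adjustment over all probe sets, 0 of the 19 probe sets passed an adjusted p of 0.05 (adjusted p between 0.559 and 0.977), where 0% of all probe sets passed. With a mean-variance trend, 0 of the 19 passed as well (adjusted p between 0.595 and 0.975), where 0.155% of all did. At an unadjusted p under 0.05 there was 1 of 19 probe sets, against 8.01% of all, and it was a dim Xiap probe set described below. Of the 19, 10 were higher and 9 lower in knockout pools, against 19719 and 25318 of all probe sets. Xiap made up 7 of the 9 lower ones. With 1 probe set a gene, 6 genes were higher and 2 lower, against 7623 and 10570 of all genes. The median difference of the 19 was 0.05. That median was 0.17 after median centring and 0.20 with 1 probe set a gene, and it was below 0 (-0.049 at the lowest) without knockout replicate 3, wild type replicate 2 or wild type replicate 3, so it has no settled sign. The median size of the difference, sign aside, was 0.21 over the 19 and 0.33 over all probe sets. The groups failed to overlap for 1 of 19 probe sets, against 15.8% of all. It was lower in knockout pools, as 8.95% of all probe sets were without overlap, and 0 of 19 were higher without overlap, against 6.84% of all. A missed threshold does not show that levels were alike, and the intervals below give the changes these arrays leave possible.

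**Figure D1:**
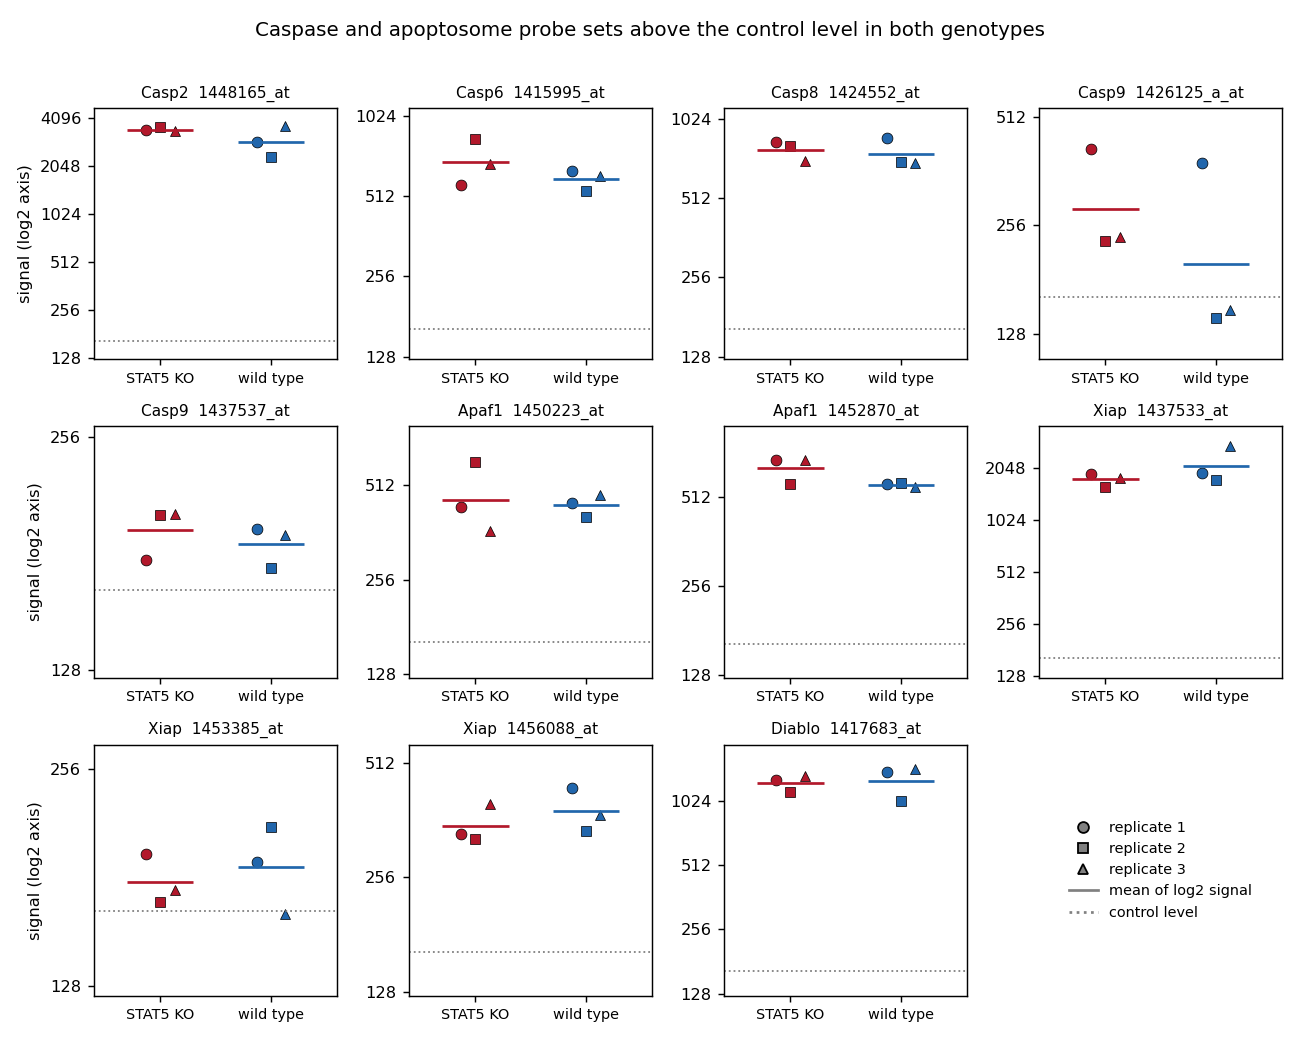
Signal of the 11 member probe sets with both genotype means above the control level (y axis, log2 scale), with the 3 STAT5 knockout arrays left of the 3 wild type arrays, bars at the mean of log2 signal and a dotted line at the control level of 162.5. The genotypes overlap in every panel, and in the panel of Casp9 1426125_a_at replicate 1 stands above the other 2 replicates of its genotype.

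Both genotypes had transcripts of 7 of the 8 genes above the control level with at least 1 probe set. Of the 19 probe sets, 11 had both genotype means above that level and the other 8 had both below it, so that no probe set crossed it between genotypes. The SE of the 11 ran from 0.20 to 0.48 and that of the 8 from 0.22 to 1.12.

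The promoters of these genes were read for the pattern that STAT dimers bind, because STAT5 is the factor that the knockout label names. All 8 genes matched a RefSeq entry of GRCm38.p6, with 10 start sites in all, 3 of them for Xiap. The letters TTCNNNGAA, searched on both strands in the 250 bases before each start, were found in 0 of these 10 windows and in 7.02% of all 32851 windows of 27025 genes. No match says only that these letters are not in this window. The 3 sequences below are printed as examples of how far the members differ in the dinucleotide CG, which is dense in promoters of broadly used genes. Each runs 5′ to 3′ on the gene's own strand and ends at the base before the start, with every CG in capitals.
Apaf1, chr10:91082744-91082993, minus strand: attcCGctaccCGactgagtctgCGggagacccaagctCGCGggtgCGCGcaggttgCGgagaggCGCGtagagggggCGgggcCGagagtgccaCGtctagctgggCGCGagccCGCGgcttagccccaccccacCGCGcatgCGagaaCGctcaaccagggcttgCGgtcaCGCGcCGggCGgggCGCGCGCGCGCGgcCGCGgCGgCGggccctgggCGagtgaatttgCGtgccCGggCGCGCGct
Casp9, chr4:141793362-141793611, plus strand: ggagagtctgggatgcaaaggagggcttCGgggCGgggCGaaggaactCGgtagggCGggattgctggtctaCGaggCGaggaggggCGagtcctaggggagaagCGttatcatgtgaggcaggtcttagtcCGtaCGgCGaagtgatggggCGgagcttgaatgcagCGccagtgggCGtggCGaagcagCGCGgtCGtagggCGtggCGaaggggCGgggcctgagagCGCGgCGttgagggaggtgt
Casp1, chr9:5298267-5298516, plus strand: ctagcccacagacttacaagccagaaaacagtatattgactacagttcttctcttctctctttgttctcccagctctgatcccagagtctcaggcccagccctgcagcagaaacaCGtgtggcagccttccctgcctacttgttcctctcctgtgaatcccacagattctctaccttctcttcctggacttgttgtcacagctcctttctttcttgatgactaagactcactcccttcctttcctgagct
The Apaf1 window holds 42 CG and the Casp9 window 25, which is 1.19 and 1.17 times the number expected from their C and G, more than in 99.3% and 99.1% of all windows. The Casp1 window holds 1 CG, a ratio of 0.077, more than in 11.6% of all windows. The median ratio over all windows was 0.373. Diablo (0.979) was also above most windows, and of the 3 Xiap windows 2 held 1 CG each, with ratios of 0.076 and 0.108, so few CG were not particular to Casp1. The letters GGGCGG, the GC box, which hold a CG themselves, were found on either strand in 7 of the 10 member windows and in 32.7% of all, and in those of Apaf1 and Casp9 but not that of Casp1. The other patterns searched on both strands were CCAAT, found in 3 of 10 member windows (Casp2, Casp8 and Diablo) and in 33.8% of all, and TTTCCCGC, an E2F pattern, found in that of Casp2 alone and in 0.895% of all.

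The initiator caspases come first in the chain. Casp2 encodes caspase-2, an initiator that responds to DNA damage and to errors of cell division through the adaptor PIDD1. Its only probe set read 3428, 3564 and 3363 in knockout pools and 2898, 2333 and 3616 in wild type pools. The knockout pools lay close together and the wild type pools spread around them, with wild type replicate 3 above all knockout pools. The log2 difference was 0.25 (SE 0.24, interval -0.33 to 0.83, adjusted p = 0.786, limma), that is 1.19-fold with an interval of 0.794 to 1.78. It was 0.092 without wild type replicate 2 and 0.41 without wild type replicate 3.

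Casp8 encodes caspase-8, the initiator at death receptors. It read 836, 807 and 709 in knockout pools and 868, 706 and 699 in wild type pools, so both genotypes covered the same range. Its log2 difference was 0.05 (SE 0.21, interval -0.46 to 0.57, adjusted p = 0.957, limma), and the highest of the 6 signals was 1.24 times the lowest.

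Casp9 encodes the initiator that the apoptosome activates, and its 3 probe sets did not behave alike. Probe set 1426125_a_at read 416, 232 and 238 in knockout pools and 381, 142 and 149 in wild type pools. Replicate 1 was far above replicates 2 and 3 in both genotypes, and wild type replicates 2 and 3 lay under the control level. The fit takes the pools as unpaired, so this step at replicate 1 enters the SE and interval given next. Its log2 difference of 0.51 had an SE of 0.48 and an interval of -0.67 to 1.68, and it was 0.23 without knockout replicate 1, while leaving out 1 wild type pool gave 0.97, 0.26 and 0.29 for replicates 1, 2 and 3. Probe set 1437537_at read 177, 203 and 203 in knockout pools and 194, 173 and 191 in wild type pools, with no such jump in replicate 1, and differed by 0.06 (SE 0.20, interval -0.42 to 0.54, and 0.011 to 0.13 without any 1 array). The third probe set, 1457816_at, lay below the control level on all 6 arrays, between 57.3 and 83.5, and gets no fold. None of the 3 passed (adjusted p between 0.763 and 0.944, limma).

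Apaf1 encodes the scaffold of the apoptosome, and both of its probe sets lay above the control level on all 6 arrays. Probe set 1452870_at read 679.9, 563 and 681 in knockout pools and 564, 569 and 552 in wild type pools. Knockout replicates 1 and 3 stood above the tightly grouped wild type pools, and knockout replicate 2 was among them. Its log2 difference was 0.19 (SE 0.20, interval -0.30 to 0.67, adjusted p = 0.809, limma). Probe set 1450223_at read 437, 606 and 365 in knockout pools and 449.7, 404 and 476 in wild type pools, and here knockout replicate 2 was the highest of all and replicate 3 the lowest. The probe sets thus ordered the knockout pools in opposite ways, and the second differed by 0.05 (SE 0.26, interval -0.58 to 0.69).

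Casp6 encodes caspase-6, an executioner that cleaves the nuclear lamins. Probe set 1415995_at read 564, 842 and 677 in knockout pools and 637, 533 and 608 in wild type pools. Knockout replicates 2 and 3 were above and replicate 1 within the wild type range. The log2 difference was 0.21 (SE 0.24, interval -0.37 to 0.79, adjusted p = 0.820, limma), 1.16-fold with an interval of 0.774 to 1.73. It was 0.063 without knockout replicate 2 and 0.35 without knockout replicate 1. Probe set 1458715_at had both means below the control level and gave a difference of 0.18 with an SE of 0.60, as wild type replicate 3 alone read 55.9 against 206 and 251 in the other wild type pools.

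Casp1 encodes caspase-1, which belongs to the inflammatory branch, matures interleukin-1 beta and interleukin-18, and is best known from macrophages. Its only probe set read 117, 129 and 262 in knockout pools and 59.1, 181 and 170 in wild type pools. Both means lay under the control level and 3 of the 6 arrays above it, so no fold is given. The log2 difference was 0.37 (SE 0.55, interval -0.98 to 1.73, adjusted p = 0.869, limma), and -0.15 without wild type replicate 1. The summed signal of 10 macrophage markers was 29526, 32324 and 41887 in knockout pools and 23487, 40115 and 34219 in wild type pools, highest in the pool with the highest Casp1 signal and lowest in the pool with the lowest. Of the 10 markers, 7 were higher and 3 lower in knockout pools, and none was at 0. The part of macrophage RNA in the Casp1 signal was not tested.

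**Figure D2:**
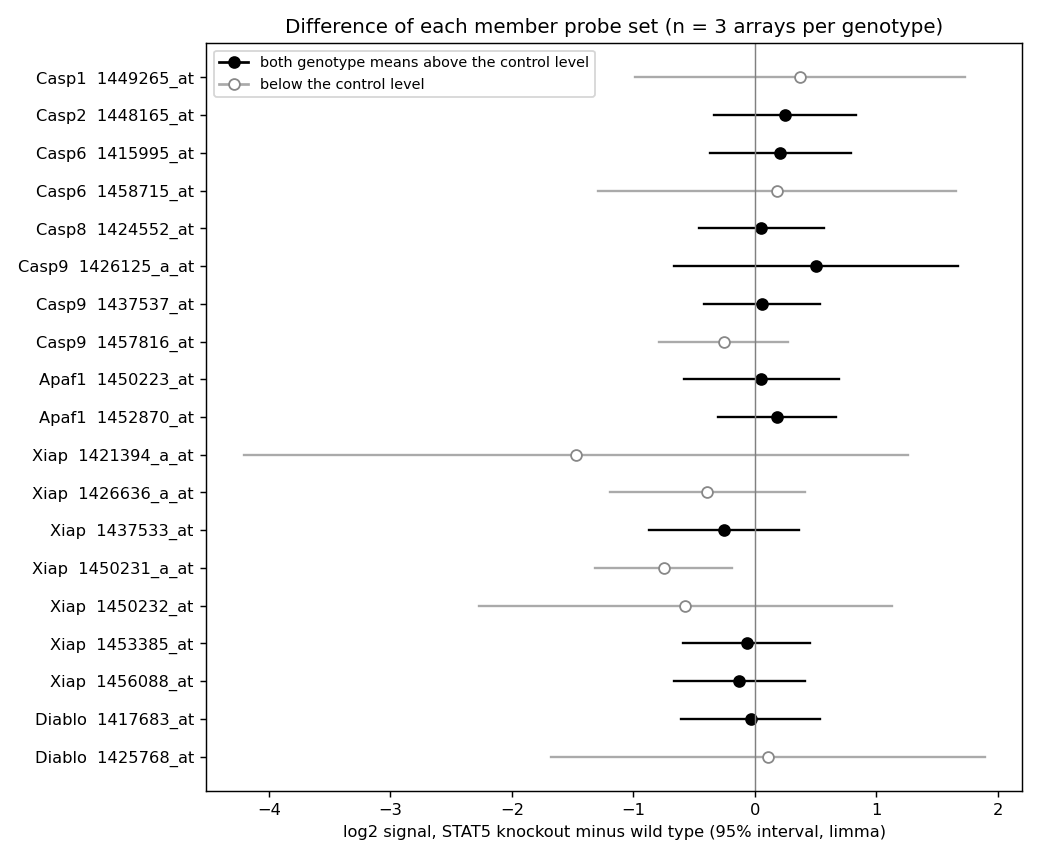
Log2 signal in STAT5 knockout minus wild type for each of the 19 member probe sets, with limma's 95% interval (n = 3 per genotype). Filled points have both genotype means above the control level and open points have both below it. The 7 Xiap points all lie left of 0, and 1450231_a_at, an open point, is the only probe set whose interval leaves out 0.

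Xiap encodes the X-linked inhibitor that holds caspase-9 and some of the executioners in check. All 7 of its probe sets were lower in knockout pools on the deposited scale. They are not 7 separate measurements, since 3 were designed on 1 source sequence and 2 on another. The median of the 7 differences was -0.39. Probe set 1437533_at read 1905, 1607 and 1807 in knockout pools and 1929, 1764 and 2765 in wild type pools. The groups overlapped, and wild type replicate 3 stood apart above the other 5 arrays. The log2 difference was -0.26 (SE 0.25, interval -0.87 to 0.36, adjusted p = 0.793, limma), and -0.06 without wild type replicate 3. The other probe sets above the control level, 1456088_at and 1453385_at, gave -0.13 (interval -0.66 to 0.41, and -0.22 to -0.024 without any 1 array) and -0.07 (interval -0.59 to 0.46), and that of 1453385_at turned to 0.05 after quantile normalization and after median centring.

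The 4 dimmer Xiap probe sets had both means below the control level. Among them was 1450231_a_at, with 79.6, 97.2 and 73.8 in knockout pools and 119.8, 161 and 141 in wild type pools, the only member probe set whose groups did not overlap. Its log2 difference was -0.75 (SE 0.23, interval -1.32 to -0.18). It had the smallest p of the 19 (0.0177 unadjusted, adjusted p = 0.559, limma), and no fold is given because neither genotype rose above the control level. The submitters' criterion, an unadjusted p under 0.05 and a fold over 1.5, was met by this 1 of 19 probe sets, 5.26%, where 5.19% of all probe sets met it and 3.05% met it as lower in knockout pools. The share of the members is close to that of all probe sets. Both other dim probe sets designed on its source sequence, 1421394_a_at and 1450232_at, had overlapping groups, with knockout replicate 2 at 3.69 and 13.9 and the other 5 arrays between 50.7 and 73.8 and between 35.6 and 87.3. Without that pool their differences were -0.14 and 0.15. The remaining dim probe set, 1426636_a_at, also had overlapping groups, with a difference of -0.39. Without knockout replicate 2 its difference was -0.69, and it then met the submitters' criterion too.

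Diablo encodes the protein that displaces XIAP from caspases. Probe set 1417683_at read 1282, 1120.25 and 1337 in knockout pools and 1396, 1023 and 1443 in wild type pools. The knockout pools lay inside the wild type range. Its log2 difference was -0.03 (SE 0.23, interval -0.61 to 0.54, adjusted p = 0.977, limma), 0.977-fold with an interval of 0.657 to 1.45, and it was 0.08 after median centring. Probe set 1425768_at lay below the control level in both means, with 39.6 in wild type replicate 2 and 248 in wild type replicate 1, and its difference of 0.11 had an interval of -1.68 to 1.90.

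**Figure D3:**
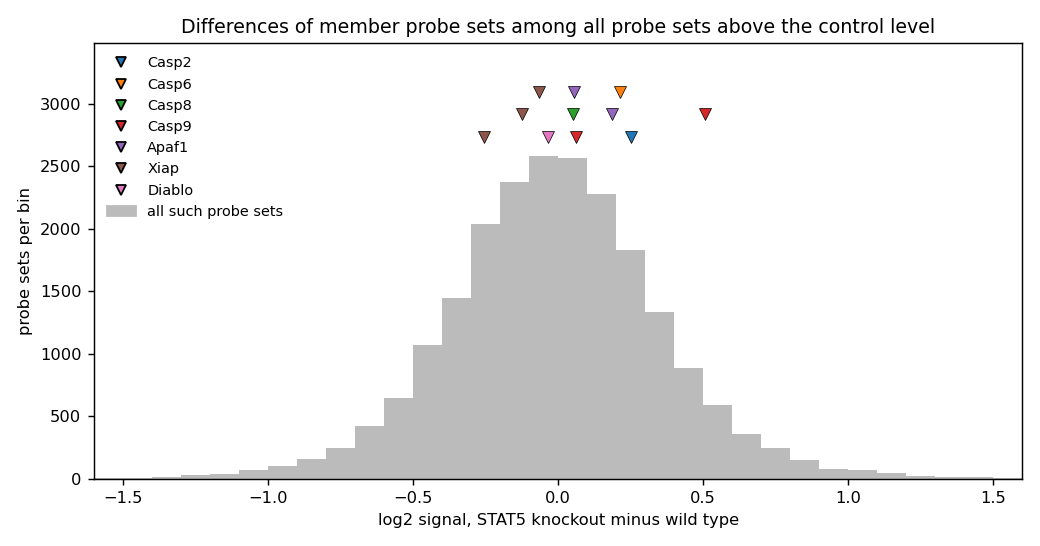
Histogram of log2 differences, STAT5 knockout minus wild type, over the 21758 probe sets above the control level in both genotypes (grey, probe sets per bin of 0.1, x axis cut at -1.6 and 1.6), with a triangle for each of the 11 member probe sets among them, coloured by gene. Triangle height only separates the symbols. Member differences run from -0.26 (Xiap) to 0.51 (Casp9).

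Of the 11 member probe sets above the control level in both genotypes, 10 had intervals that lay wholly between -1 and 1 on the log2 scale, and the exception was Casp9 1426125_a_at. A doubling or halving of Casp2, Casp6, Casp8, Apaf1, Xiap or Diablo transcript at these probe sets was therefore outside the intervals, while changes of about 1.5-fold were inside most of them.

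Against the wild type mean, the 19 probe sets deviated by a median of -0.02, 0.01 and 0.07 in knockout replicates 1 to 3 and 0.06, -0.12 and 0.04 in wild type replicates 1 to 3. Wild type replicate 2 was the lowest of the 6 arrays for 6 of the 19 probe sets, and wild type replicate 3 the highest for 5. Over the 11 probe sets above the control level, wild type replicate 2 deviated by a median of -0.15 and was the lowest for 5, although its median signal over all probe sets, 216, was the highest of the 6 arrays.

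Across the 6 arrays, the genes whose brightest probe set followed a member most closely were, by Pearson r, Ppp3cb for Casp2 (r = 0.996), Rpl10a for Casp6 (0.977), Usp49 for Casp8 (0.983), Aimp1 for Casp9 (0.990), Sumf1 for Apaf1 (0.991), Wdr76 for Xiap (0.995) and Klk8 for Diablo (0.996). The next were Tial1, Smim15, Il15ra, Sirt2, Bcl7a, Ttk and Ctps in the same order, with r between 0.965 and 0.994. With 6 points and 11173 genes compared, between 37 and 309 genes exceeded an r of 0.9 for each member, and the points share array scaling and genotype, so these values describe the arrays only.

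The other genes of the pathway were taken from 5 lists, each gene by its brightest probe set. Of 37 measured genes, 0 passed by limma, where 0% of all genes did, and 0 with a mean-variance trend, where 0.214% did. At an unadjusted p under 0.05 there were 2 of 37 by limma, 4 with the trend and 5 by the methods' t-test, against 7.21%, 10.9% and 9.32% of all genes. Groups did not overlap for 3 genes that were higher and 3 that were lower in knockout pools, against 7.02% and 9.85% of all genes (16.9% in either direction), and the median difference was -0.11, where that of all genes was -0.08.

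Among proteins that leave the mitochondria with cytochrome c, 4 of 6 measured genes had groups that did not overlap, 1 higher and 3 lower in knockout pools, where 7.02% of all genes were higher and 9.85% lower without overlap. This list was singled out of the 5 after its values were seen, and 1 of the 4 genes, Cyct, was below the control level on all 6 arrays. Cycs, the gene of cytochrome c, the ligand of APAF1, read 9405, 9160.4 and 10201 in knockout pools and 13278, 12023 and 13001 in wild type pools at its brightest probe set. Every knockout pool lay below every wild type pool there, with a log2 difference of -0.41 (SE 0.19, interval -0.88 to 0.05, adjusted p = 0.650, limma, and 0.295 with the trend). The next probe sets of Cycs gave -0.43 and -0.19, also without overlap, and a dim one, with the knockout mean under the control level, -0.69 with overlap. Htra2, a mitochondrial protease that, like DIABLO, can bind XIAP, read 1932, 2017 and 1820.4 in knockout pools and 1673, 1083 and 1277 in wild type pools. All knockout pools were above all wild type pools, with differences of 0.54 (SE 0.24) and 0.60 (SE 0.22) at its 2 probe sets and adjusted p of 0.643 and 0.607 by limma. Endog, a mitochondrial nuclease, differed by -0.82 (SE 0.25, adjusted p = 0.556, limma) without overlap at 1 probe set and by -0.09 with overlap at the other. Cyct, the testis form of cytochrome c, differed by -1.65, with both means under the control level. Cycs and Htra2 were chosen for description after their values were seen. The signs of these differences of Cycs, Htra2 and Endog held after quantile normalization and median centring, and Cycs was between -0.46 and -0.38 and Htra2 between 0.39 and 0.71 at their brightest probe sets without any 1 array.

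**Figure D4:**
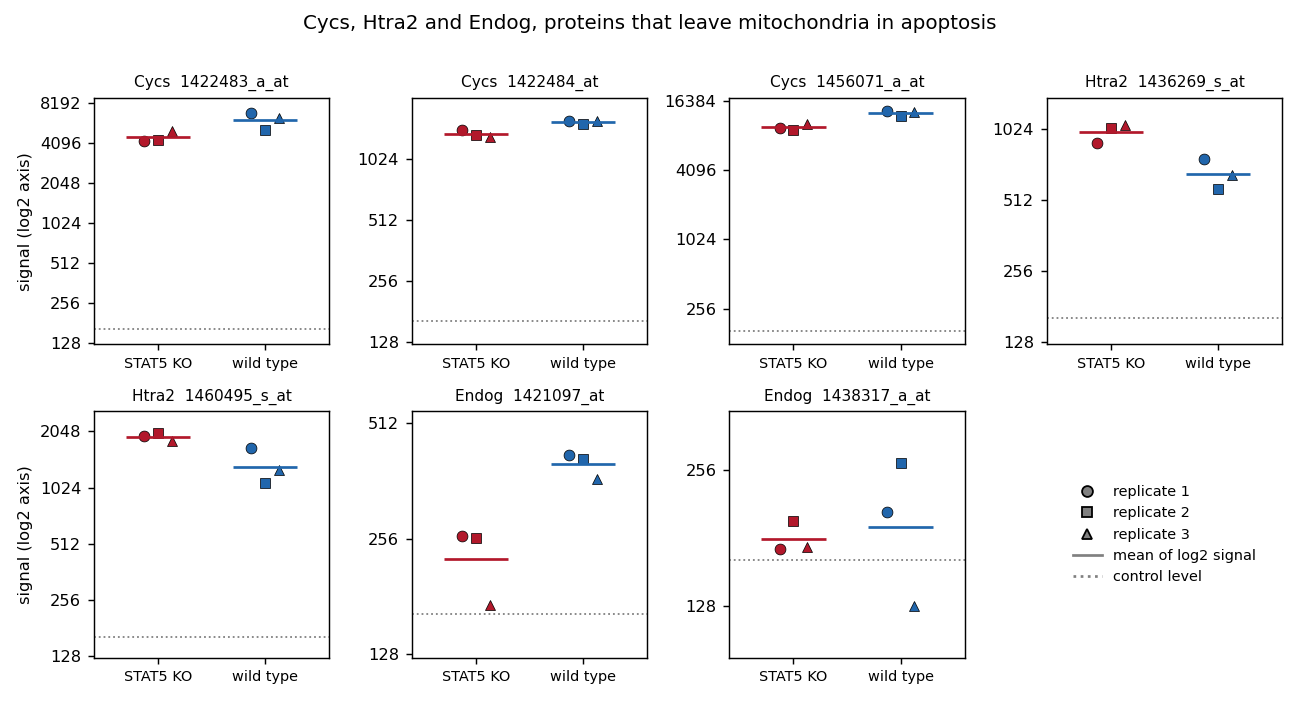
Signal of the Cycs, Htra2 and Endog probe sets with both means above the control level (y axis, log2 scale), STAT5 knockout arrays left of wild type arrays, with bars at the mean of log2 signal and the control level dotted. The groups are separate in all panels of Cycs and Htra2 and for Endog 1421097_at, and overlap for Endog 1438317_a_at.

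For each of the remaining lists, the 2 genes with the smallest p are given. Of 8 adaptors and regulators, Pycard, the adaptor that recruits caspase-1, differed by 0.50 (SE 0.25) without overlap, and Fadd by -0.17 (SE 0.21). The other probe sets of Pycard, at 0.10 and -0.70, and a dim one of Fadd, at -0.58, had overlapping groups. Of 7 other inhibitors of apoptosis, Birc3, which encodes cIAP2, differed by 0.48 (SE 0.22) without overlap and by -0.80 with overlap at a second probe set below the control level, and Naip2, a sensor of bacterial proteins, by 0.52 (SE 0.28). Of 3 other caspases measured, Casp12 (-1.29, and -0.89 at its other probe set) and Casp4 (-1.23) had means under that level in knockout and in wild type pools. Of 13 caspase substrates, the actin-severing protein gene Gsn differed by -0.44 (SE 0.33) and the DNA repair gene Parp1 by -0.41 (SE 0.32). Both had overlapping groups, and the other probe sets of Parp1 gave -0.11, 0.10 and 0.67. Those of Gsn gave -0.31, -0.36, -0.59, -0.13 and, below the control level, -0.38, all with overlap. Leaving out any 1 array moved Gsn between -0.74 and -0.17, Parp1 between -0.70 and -0.23, Fadd between -0.28 and -0.082, Naip2 between 0.33 and 0.73, Casp12 between -1.67 and -0.85 and Casp4 between -2.51 and -0.59. The adjusted p of these 8 genes lay between 0.641 and 0.841 (limma).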

How the data were processed

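RNA of 3 STAT5 knockout and 3 wild type pools, each of 3 to 5 embryos, was hybridised to Affymetrix Mouse430_2 arrays, as described in the labels' protocols. The table the authors deposited holds 1 linear intensity per probe set and array. RMA and Partek are named, per the submitters' processing notes, but the scaling of the arrays is unknown. The deposited values are linear and their medians differ between arrays, from 175 to 216, so they cannot be assumed to be RMA values. Sample titles gave the group and number of each array.

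Values were used as log2 intensity with no added constant and no filter. After 64 control probe sets were left out, 45037 were fitted with lmFit and eBayes of limma 3.58.1 in R 4.3.3, with Benjamini-Hochberg adjustment over all of them. The GEO platform annotation named 34945 probe sets by 1 symbol, 932 by several and 9160 by none. All 19 member probe sets matched a RefSeq gene of GRCm38.p6 by Entrez ID. The members, the 5 other pathway lists and the marker lists were chosen with earlier results of these data known. The rule for named genes took all member probe sets, Stat5a and Stat5b, the 2 genes with the smallest p of each other pathway list, and the 2 genes most like each member above the control level. The array number limits the precision: exact permutation of 3 against 3 arrays cannot give a two-sided p below 0.1. In simulated data with 45037 probe sets whose spread fell with brightness, the fit without a trend recovered 0% and the fit with a trend 74% of probe sets changed by 2 on the log2 scale. For a change of 1 these shares were 0% and 39%, and there were 0 and 10 false calls. Brightness alone set the spread there, so probe sets of like brightness did not differ in spread. These shares therefore do not measure recovery here either. When spreads came from 1 prior for all probe sets, the fit without a trend recovered 95% for a change of 2 and 41% for a change of 1. That prior was set by hand and not estimated from these arrays, so the 95% does not measure recovery here. The control level was chosen after the data were seen. A first choice of 12 of its 27 probe sets gave 170.7, with 11 member probe sets above it in both genotypes and 0 of 19 classed otherwise. The titles call the pools biological repeats. The methods' t-test on the same values, other scalings and left-out arrays served as alternatives. Promoter sequence is RefSeq's, GRCm38.p6.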

Additional observations from a re-analysis of the deposited data

How the results depend on the processing

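No member probe set passed the adjusted threshold under any alternative tried, namely a mean-variance trend without and with robust estimation, quantile normalization, median centring, the methods' t-test with adjustment, adding 32 to the signal, leaving out the dimmer 50% of probe sets, array weights, the replicate block without and with a trend, leaving out any 1 array without and with a trend, and leaving out probe sets ending in _x_at, _s_at or _a_at (smallest adjusted p between 0.330 and 0.781). The 37 other pathway genes gave 0 calls as well (0.217 to 0.736). Same-numbered pools correlated by 0.097, 0.118 and 0.097 in their deviations, higher than with any other number. The labels pair no arrays, so the main fit took the pools as unpaired. Whether same-numbered pools share a source of spread was not tested. With the replicate number as a block the smallest adjusted p of a member was 0.635, with 0 calls. The median member difference was 0.17 after median centring and 0.20 with 1 probe set a gene, and ran from -0.049 to 0.033 without 1 array, lowest without knockout replicate 3. The submitters' criterion was met by 0 member probe sets without the dimmer 50% and with 32 added, and by 1 to 2 without 1 array (2 without knockout replicate 2). Groups failed to overlap for 2 member probe sets after quantile normalization, for 0 without the _x_at, _s_at and _a_at probe sets, and for 2 to 5 without 1 array, where fewer arrays make separation more frequent. Differences that changed sign were those of Xiap 1453385_at (0.050 after quantile normalization and 0.045 after median centring), Diablo 1417683_at (0.079 after median centring) and Diablo 1425768_at (-0.18 with array weights), and the cause was not tested. Without 1 array the sign changed for Casp1 (-0.15 to 0.66), Casp6 1458715_at (-0.49 to 0.59), Casp8 (-0.0021 to 0.15), Apaf1 1450223_at (-0.15 to 0.22), Xiap 1450232_at (-0.98 to 0.15), Xiap 1453385_at (-0.17 to 0.027), Diablo 1417683_at (-0.19 to 0.057) and Diablo 1425768_at (-0.71 to 0.61). Low signal over background limits 8 of the 19 probe sets.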
